A study of Mus musculus with 8 samples.

Results

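The genes described here belong to the plasminogen activation system: the activators Plau and Plat, the receptor Plaur, and the protease inhibitors Serpine2 and Serpinb2. They were chosen by gene symbol in the platform annotation, and Plau was selected on its signal in these arrays, since it had the smallest p of all genes for the Aire knockout effect averaged over tissues. That effect is therefore given as a description, without a test. The rule matched 6 of 45037 probe sets: 2 for Plau, 2 for Plat, and 1 each for Plaur and Serpinb2. They represent 4 of 18193 genes, and Serpine2, matched by no probe set with a single symbol, is not analysed here. Of the 4 genes, 3 passed the filter on low signals and were tested, namely Plau, Plat and Plaur.

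Urokinase (encoded by Plau) and tissue plasminogen activator (encoded by Plat) are secreted serine proteases that cut the zymogen plasminogen into plasmin, which in turn digests fibrin and other matrix proteins. Plaur encodes the membrane-anchored receptor that holds urokinase at the cell surface, and serpins are suicide inhibitors that trap the activators. In immune tissues urokinase and its receptor are best known from macrophages, neutrophils and migrating leukocytes, and tissue plasminogen activator from endothelium and neurons.

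Total RNA from mice was measured on 8 Affymetrix arrays, 2 for each of 4 groups: spleen from Aire-wild-type mice, spleen from Aire-knockout mice, and lymph node from Aire-wild-type and from Aire-knockout mice. Aire is the autoimmune regulator, a nuclear protein by which thymic epithelium displays proteins of other organs, and the study concerned cells that express it outside the thymus. Each array is labelled by tissue, genotype and the letter A or B, with no cell type, sorting step, strain, age, sex, allele of the deletion or number of animals per array. Whether A and B came from separate animals is not stated. Within each group the sex-linked signals given below differed between A and B, so their RNA was not from an identical set of animals. Some arrays carried transcripts of both sexes, so animals shared between A and B are not excluded. How many animals each array stands for is unknown, so a p-value here reflects the spread between these arrays only.

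The deposited values are MAS5 signals, shifted here to a common median and called signal below. A signal under 9.58, the 20th percentile of all values, was raised to that floor before log2 was taken, and 59.0 was the median over all probe sets and arrays. Aire itself had a signal of 3052 to 5204 on the wild-type arrays and 791 to 2376 on the knockout arrays, and where its probe set lies in regard to the deletion was not examined. Sex-linked transcripts differed between the letters and between the genotypes. Xist was 14.6 and 23.1 on the knockout B arrays and 3565 to 7624 on the other 6. The Y-linked Eif2s3y was 3.80 and 21.2 on the wild-type A arrays and 521 to 1988 on the other 6. Wild-type B and knockout A arrays carried both transcripts. The arrays low in Eif2s3y were thus all wild-type and those low in Xist all knockout, so sex is partly confounded with genotype. The alternatives at the end include Eif2s3y as a covariate. It does not single out the knockout B arrays, which were low in Xist, so it cannot fully separate sex from genotype. Control probe sets at the 3' end read 1.01 to 1.13 times those at the 5' end for Actb, and 2.99 to 4.53 times for Gapdh. Dendritic cell markers were above the median signal on every array for 8 of 9 measured genes, as were 1 of 6 T cell and 0 of 5 B cell markers. All 6 T cell and all 5 B cell markers were above the floor on every array. Arrays hold pooled RNA, in which fewer cells of a type and less RNA per cell cannot be told apart.

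Plau had its lowest signals in wild-type spleen and its highest in knockout lymph node. The brighter of its probe sets, 1422139_at, read 41.6 and 52.9 on the wild-type spleen arrays A and B and 369 and 398 on the knockout spleen arrays. In lymph node it read 157 and 98.3 on the wild-type arrays and 1000 and 690 on the knockout arrays. Every knockout array was thus above every wild-type array, including the wild-type arrays of the other tissue.

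The group means of Plau were 47.2 ± 7.98 (SD, n = 2) in wild-type spleen, 128 ± 41.5 (SD, n = 2) in wild-type lymph node, 384 ± 20.9 (SD, n = 2) in knockout spleen and 845 ± 219 (SD, n = 2) in knockout lymph node. No neighbours in this order had overlapping arrays. The spread between arrays A and B was small beside these steps, with a within-group SD of 0.33 on the log2 scale. A choice by the smallest p favours a small spread, so this SD too is only a description. As a description, the knockout minus wild-type difference was 3.03 ± 0.38 (SE, log2) in spleen, 2.74 ± 0.38 in lymph node and 2.89 ± 0.27 averaged over the tissues. These differences correspond to 8.18-fold, 6.69-fold and 7.40-fold. Without both knockout A arrays the averaged difference was 2.78.

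The other Plau probe set, 1422138_at, was dimmer and had the same order of genotypes in each tissue. It read 2.41, below the floor, and 11.9 in wild-type spleen, 92.0 and 60.9 in knockout spleen, 45.3 and 50.9 in wild-type lymph node, and 189 and 138 in knockout lymph node. Here too all 4 knockout arrays lay above all 4 wild-type arrays. Its differences on the floored log2 scale were 2.81 in spleen and 1.75 in lymph node, and 2.28 averaged. Averaging the log2 values of the Plau probe sets gave 2.58, so the brighter probe set gives the larger of the estimates.

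Of the 3 tested members, Plau and Plat had both knockout spleen arrays above both wild-type spleen arrays, as 13.3% of all 11557 tested genes did. In lymph node this held for Plau alone, and for 14.6% of all tested genes. Across both tissues Plau was the member with all 4 knockout arrays above all 4 wild-type arrays, as for 1.44% of tested genes. Because the members were chosen on this contrast, nothing is read from these counts.

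**Figure D1:**
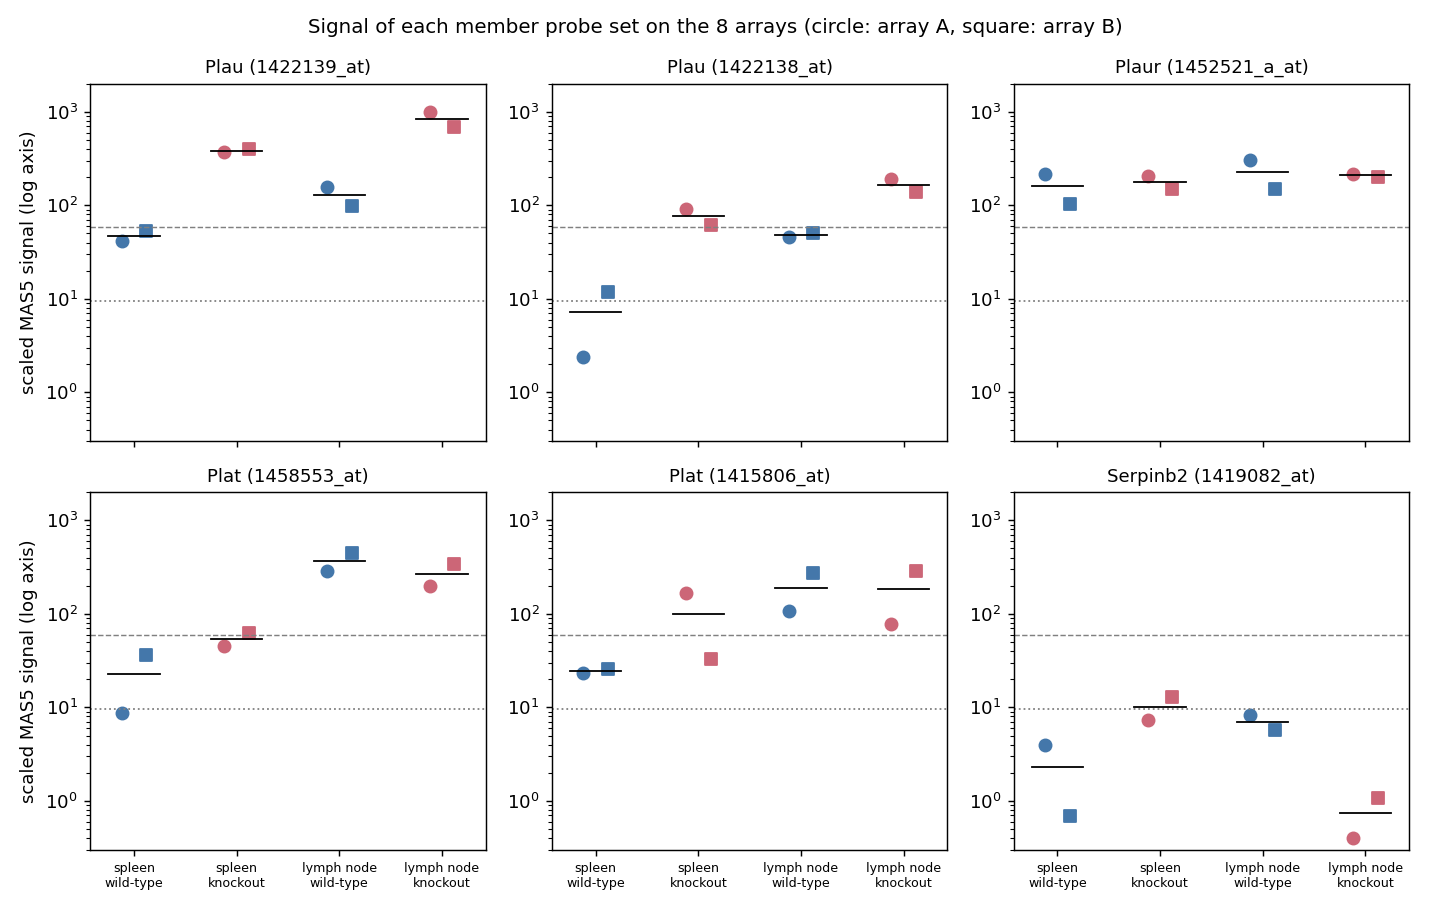
Signal of the 6 member probe sets on the 8 arrays, with the scaled MAS5 signal on a log axis, tissue and genotype along the horizontal axis, circles for array A, squares for array B, blue for wild-type, red for knockout and short black lines for group means of 2 arrays. The dotted line is the floor of 9.58 and the dashed line the median signal of 59.0; the Plau panels show the knockout arrays above the wild-type arrays, the 1458553_at panel of Plat shows lymph node above spleen, and 7 of 8 Serpinb2 points lie below the floor.

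Plaur, the urokinase receptor, did not show the pattern of its ligand. Its probe set, 1452521_a_at, read 218 and 103 in wild-type spleen, 205 and 149 in knockout spleen, 303 and 149 in wild-type lymph node and 216 and 203 in knockout lymph node. All 8 signals were above the median signal, and the genotypes overlapped in each tissue. The highest signal was 2.94-fold the lowest, against 24.0-fold for the brighter Plau probe set.

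The group means of Plaur ran from 160 ± 81.3 (SD, n = 2) in wild-type spleen through 177 ± 39.8 (SD, n = 2) in knockout spleen and 209 ± 9.43 (SD, n = 2) in knockout lymph node to 226 ± 108 (SD, n = 2) in wild-type lymph node. All neighbours in this order overlapped. The averaged knockout minus wild-type difference was 0.10 ± 0.36 (SE, log2), with a 95% interval from -0.74 to 0.94. This interval includes changes of somewhat under a doubling in either direction.

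Plat, the tissue plasminogen activator, had higher signals in lymph node than in spleen. Its brighter probe set, 1458553_at, read 8.70, below the floor, and 36.6 in wild-type spleen and 44.9 and 62.5 in knockout spleen. In lymph node it read 290 and 445 on the wild-type arrays and 199 and 338 on the knockout arrays. Every lymph node array was above every spleen array, as for 1.90% of the 11557 tested genes.

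The group means of this Plat probe set were 22.6 ± 19.7 (SD, n = 2) in wild-type spleen, 53.7 ± 12.5 (SD, n = 2) in knockout spleen, 268 ± 97.8 (SD, n = 2) in knockout lymph node and 367 ± 110 (SD, n = 2) in wild-type lymph node. The lymph node groups overlapped each other, and the spleen groups did not. The knockout minus wild-type difference was 1.50 ± 0.66 (SE, log2) in spleen and -0.47 ± 0.66 in lymph node, and 0.52 ± 0.46 averaged over the tissues. The spleen value rests on the wild-type array A: it was 0.53 without that array, 2.45 without wild-type array B, and 0.57 with the floor set at the 40th percentile.

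The other Plat probe set, 1415806_at, agreed on the tissue with higher signals but was less even. It read 23.1 and 26.0 in wild-type spleen, 165 and 32.7 in knockout spleen, 108 and 272 in wild-type lymph node and 77.0 and 288 in knockout lymph node. Knockout spleen array A was above lymph node arrays A of both genotypes, so the tissues overlapped here. Its averaged knockout minus wild-type difference was 0.69. Its spleen minus lymph node difference was -1.91, against -3.28 for the brighter probe set.

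Serpinb2, which encodes plasminogen activator inhibitor type 2, was near the bottom of the signal range. Its only probe set, 1419082_at, was above the floor on 1 array, knockout spleen B, at 12.9. The other 7 signals were 0.403 to 8.26 and, lying below the floor, have no order. Serpinb2 was never above the median signal and was not tested, and with 7 arrays at the floor no knockout difference is given for it.

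The difference between spleen and lymph node was not used to choose the members, so it was tested. The test shares its within-group spread with the knockout contrast, on which Plau was selected. The Plau p-values and intervals in this and the next comparison are therefore not free of that selection. Plat was higher in lymph node by 3.28 ± 0.46 (SE, log2), or 9.69-fold, with a 95% interval for spleen minus lymph node from -4.38 to -2.18. Plat passed the filter through its 4 lymph node arrays and 1 spleen array, knockout B, and so was admitted mainly by the tissue where it is high. Its unadjusted limma p was 0.000208, and its adjusted p of 0.127 over all tested genes did not pass the threshold of 0.05. The adjusted p ranged from 0.0167 to 0.386 over the alternatives, and Plat passed in 2 of 20: with a trended and robust variance prior (adjusted p = 0.0167), where 48 of 11557 genes passed (0.415%), and with a floor at the 40th percentile (adjusted p = 0.0446), where 3 of 11595 did (0.0259%).

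Plau was higher in lymph node by 1.26 ± 0.27 (SE, log2), or 2.40-fold, with an interval for spleen minus lymph node from -1.89 to -0.63. The limma p was 0.00213 unadjusted and 0.220 adjusted, and the adjusted p was 0.113 to 0.480 over the alternatives. Within the wild-type arrays the difference was -1.40, and within the knockout arrays -1.12. In each genotype both lymph node arrays were above both spleen arrays.

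Plaur differed by -0.38 ± 0.36 (SE, log2), with an interval from -1.22 to 0.46 and a limma adjusted p of 0.758. By limma 0 of the 3 members passed for spleen minus lymph node, and 0 of all 11557 genes did (0%), while 2 members and 1242 genes had an unadjusted p under 0.05. The median difference over all tested genes was 0.06.

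The knockout effect was also compared between the tissues, and its difference passed for no tested member. By limma 0 of the 3 members and 0 of 11557 genes passed (0%), and 0 members and 395 genes had an unadjusted p under 0.05. For Plau the spleen effect minus the lymph node effect was 0.29 ± 0.53 (SE, log2; 95% interval -0.97 to 1.55; adjusted p = 0.999). For Plaur it was 0.25 ± 0.71 (interval -1.44 to 1.93), and for Plat 1.97 ± 0.93 (interval -0.23 to 4.17; unadjusted p = 0.0722), each with an adjusted p of 0.999. These intervals leave room for differences of several fold.

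**Figure D2:**
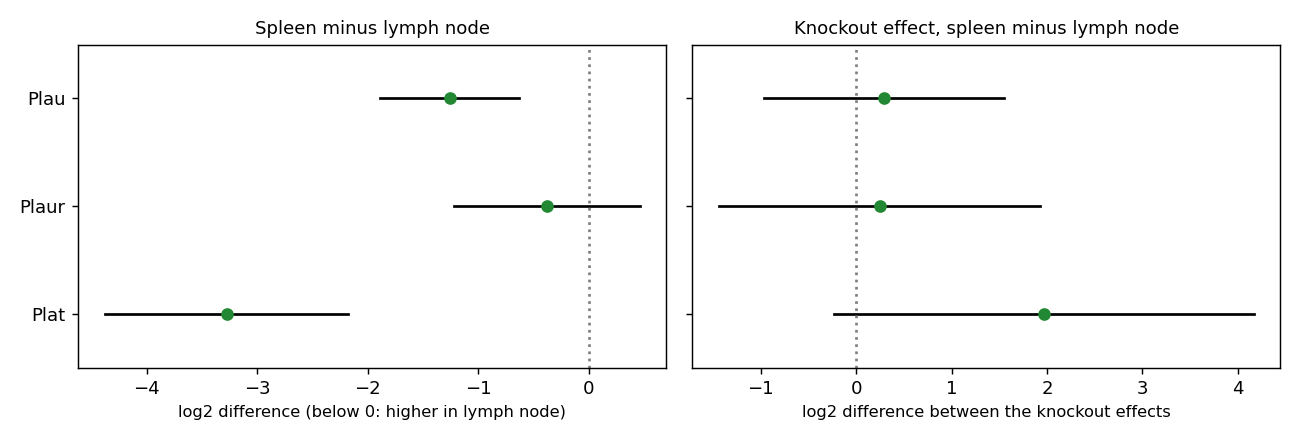
Differences of the 3 tested members on the log2 scale, with points for the limma estimates from 8 arrays and lines for their 95% intervals; left, spleen minus lymph node, and right, the knockout effect in spleen minus that in lymph node. Plat at -3.28 and Plau at -1.26 lie on the lymph node side with intervals clear of 0 before adjustment, and all 3 intervals on the right include 0. The Plau intervals use the within-group spread that entered its selection.

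Values of several marker lists, though not of all, also ran higher in knockout, without a test. Of 16 measured macrophage genes 14 had a higher mean in knockout spleen and 14 in knockout lymph node, where 43.1% and 43.7% of all 18193 genes did. The counts were 5 of 5 and 5 of 5 for plasma cell genes and 8 of 9 and 9 of 9 for proliferation genes. For platelet genes they were 5 of 5 and 4 of 5. Dendritic cell genes had 4 of 9 and 0 of 9, and epithelial and mesothelial genes 2 of 8 and 1 of 8. Neutrophil and monocyte genes had 10 of 10 and 4 of 10, and stromal genes 4 of 10 and 7 of 10. Blood endothelial genes had 5 of 9 in each tissue, and T cell genes 3 of 6 in each. B cell genes had 2 of 5 and 3 of 5, and mast cell genes 2 of 6 and 3 of 6. No macrophage gene lay at the floor on all 8 arrays. The summed macrophage signal was 7106 and 3593 on the wild-type spleen arrays A and B, 36411 and 6258 on the knockout spleen arrays, 16978 and 4000 on the wild-type lymph node arrays and 30140 and 11193 on the knockout lymph node arrays. The genotypes overlapped in this sum in both tissues. The sum gives most weight to bright genes such as C1qb (up to 11272) and Lyz2 (up to 10728). The overlap in spleen depended on the measure. By the mean log2 signal of the same genes, the lower knockout spleen array (B, 7.35) exceeded the higher wild-type one (A, 7.07). For lymph node that mean still overlapped, narrowly, with wild-type array A at 7.66 and knockout array B at 7.60. The sum was 5.82-fold higher on knockout spleen array A than on B, where the Plau signals stood at a ratio of 0.926. It was also higher on wild-type lymph node array A than on knockout lymph node array B, where Plau read 157 and 690. The part of these cell types in the Plau difference was not tested.

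Knockout spleen array A stood apart in other lists as well. The summed neutrophil and monocyte signal, over 10 measured genes, was 9833 there and 126 to 504 on the other 7 arrays. The proliferation sum, over 9 genes, was 9480 there and 1905 to 5552 elsewhere. On knockout spleen array B it was 2731, between the wild-type spleen arrays (2103 and 5188). By mean log2 signal the same array, at 7.35, exceeded them (6.75 and 6.85). The plasma cell sum, over 5 genes, was 14837 on knockout spleen array A. Array B of that group, at 2091, was below both wild-type spleen arrays (3290 and 5985). The platelet sum, over 5 genes, was 2104 and 332 on these knockout arrays, above the wild-type spleen values of 70.9 and 165. Blood endothelial markers, over 9 genes, summed to 1398 to 2004 in spleen and 1075 to 1302 in lymph node, so the tissue with the higher Plat signal had the lower endothelial sum; its part in the Plat difference was not tested. Stromal markers, over 10 genes, summed to 293 to 563 in spleen and 295 to 494 in lymph node.

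**Figure D3:**
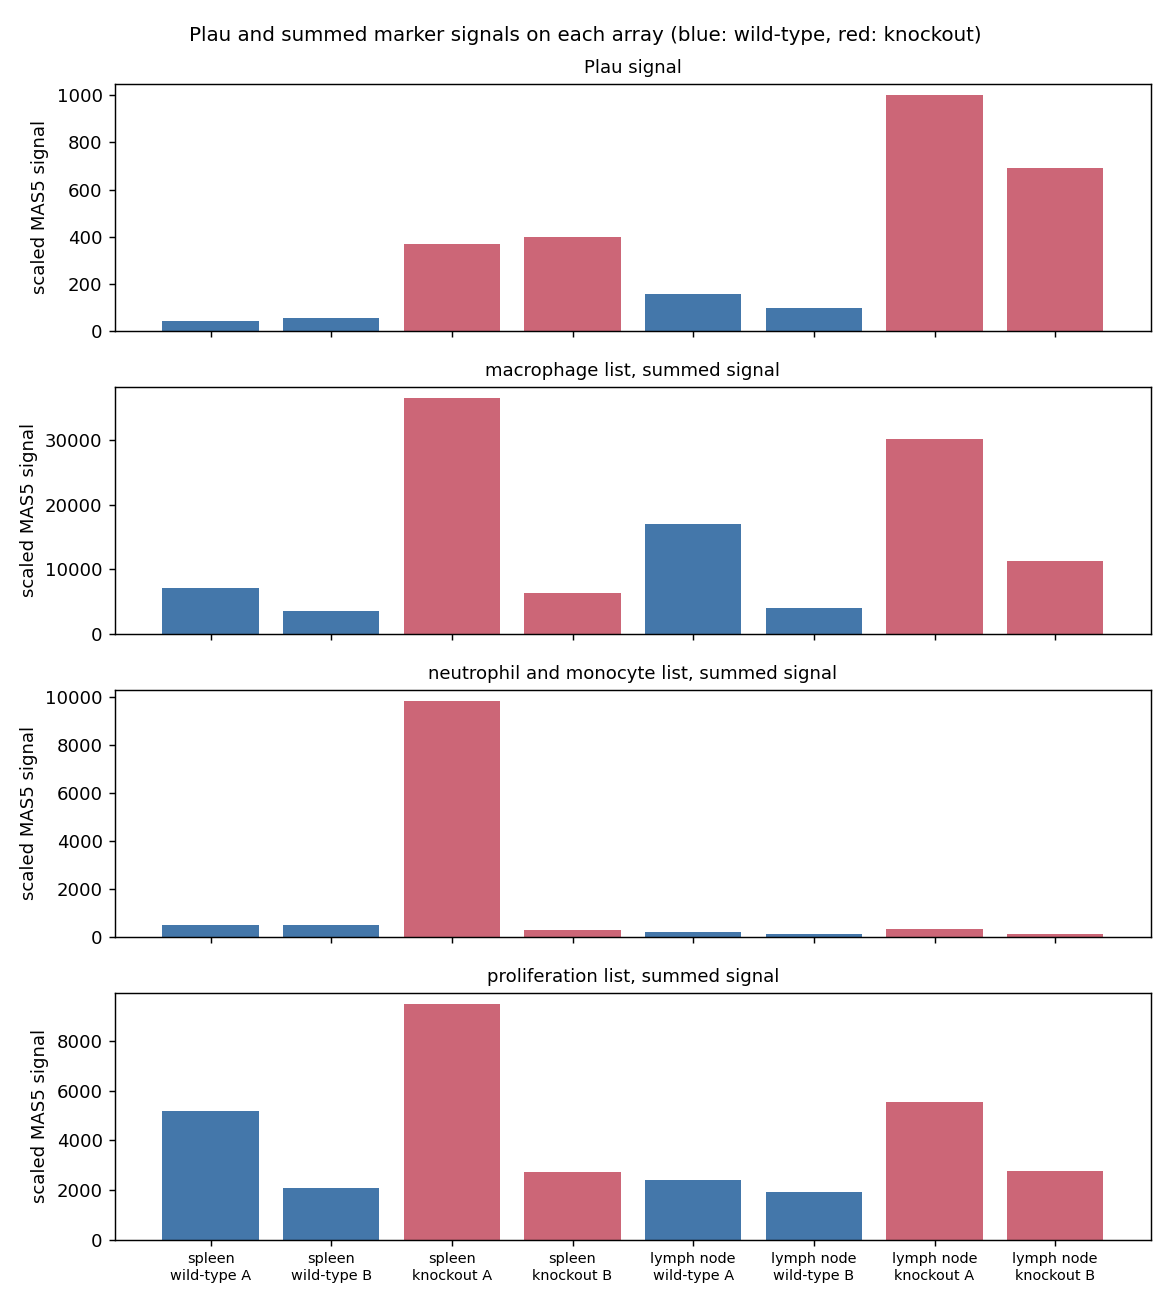
Bars of the Plau signal (probe set 1422139_at) and of the summed signal of 3 marker lists on each of the 8 arrays, as scaled MAS5 signal on linear axes from 0, with wild-type in blue and knockout in red. On knockout spleen arrays A and B Plau is 369 and 398, and the macrophage sum is 36411 and 6258.

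The rest of the plasminogen pathway was followed through a list of 70 genes that excludes the members; 63 were measured and 40 passed the filter. For the averaged knockout effect 0 of the 40 passed by limma, as did 0 of all 11557 genes (0%); 7 had an unadjusted p under 0.05, with values for 4 higher and 3 lower in knockout. Over all genes 924 had such a p. The median knockout difference was -0.10 over the 40 genes and -0.06 over all tested genes. For spleen minus lymph node 0 of the 40 passed, and 5 had an unadjusted p under 0.05, as did 1242 of all 11557 genes.

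Among plasminogen and its inhibitors, 6 of 8 listed genes were measured and 2 were tested. Plg, which encodes plasminogen and is made mainly by the liver, was at 1.09 to 2.57, below the floor on all 8 arrays. Serpinf2, which encodes the plasmin inhibitor alpha-2-antiplasmin, read 34.9 and 39.9 in wild-type spleen, 8.66 and 45.2 in knockout spleen, and 6.80 to 16.4 in lymph node, and did not pass the filter.

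Of the binding, signalling and clearance partners 14 of 20 were tested, with a median knockout difference of 0.07. Fpr2, a formyl peptide receptor of phagocytes, read 2.22 and 1.32 in wild-type spleen and 232.7 and 35.5 in knockout spleen. In lymph node it read 10.1 and 6.89, against 171 and 24.1 in knockout. Its wild-type arrays lay at or next to the floor, and its averaged difference on the floored scale was 2.98 ± 0.77 (SE, log2; limma adjusted p = 0.400).

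Lrp1, the endocytic receptor that clears activator and inhibitor complexes, read 22.7 and 37.3 in wild-type spleen, 136 and 44.4 in knockout spleen, 35.5 and 28.6 in wild-type lymph node and 59.5 and 49.6 in knockout lymph node. Its averaged difference was 1.10 ± 0.40 (SE, log2; limma adjusted p = 0.552). Lrp1 and Fpr2 each passed the filter through the knockout A arrays alone.

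Mrc2, a collagen receptor that associates with the urokinase receptor, had lower values in knockout. It read 2380 and 2337 in wild-type spleen, 871 and 1656 in knockout spleen, 1243 and 1498 in wild-type lymph node and 322 and 689 in knockout lymph node. The averaged difference was -1.25 ± 0.34 (SE, log2; limma adjusted p = 0.411). Igf2r, a lysosomal sorting receptor that also binds plasminogen, ran the same way, from 886 to 2159 in wild-type and from 388 to 1199 in knockout arrays, with a difference of -1.07 ± 0.31 (limma adjusted p = 0.451).

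Of the substrates and downstream proteases 7 of 16 were tested. F13a1, the A subunit of the factor XIII transglutaminase that crosslinks fibrin, resembled Plau in its order of groups within each tissue. It read 22.2 and 31.5 in wild-type spleen, 147 and 88.9 in knockout spleen, 133 and 158 in wild-type lymph node and 304 and 415 in knockout lymph node. The genotypes did not overlap in either tissue. The averaged knockout difference was 1.70 ± 0.28 (SE, log2; limma adjusted p = 0.203), and spleen minus lymph node was -2.04 ± 0.28 (limma adjusted p = 0.115). With the trended and robust prior the tissue difference passed (adjusted p = 0.0437), the 1 pathway gene to do so there.

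The other serpins, with 7 of 14 tested, had a median knockout difference of -0.05. Of the AP-1 and ETS factors, families with binding sites in the urokinase gene's regulatory region, 10 of 12 were tested, with a median of -0.29 and 1 of 10 values above 0. That factor was Etv5, at 23.1 and 2.98 in wild-type spleen, 486 and 44.3 in knockout spleen, 85.7 and 69.5 in wild-type lymph node and 291 and 138 in knockout lymph node. Its averaged difference was 2.34 ± 0.76 (SE, log2; limma adjusted p = 0.504).

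The genes whose pattern was most like that of Plau were found by the mean absolute difference between log2 profiles over the 8 arrays, each centred on its own mean. This distance was 1.50 for the median tested gene. The closest were Ifitm3 (0.41), an interferon-induced membrane protein, Rnase4 (0.43), a secreted ribonuclease, Zfp423 (0.49), a zinc finger factor, Fcgr2b (0.50), the inhibitory IgG receptor, Chek1 (0.52), a cell cycle checkpoint kinase, and Srl (0.52). Ifitm3 read 117 and 162 in wild-type spleen, 1241 and 496 in knockout spleen, 533 and 326 in wild-type lymph node and 2228 and 1284 in knockout lymph node. Unlike those of Plau, its wild-type lymph node signals overlapped its knockout spleen signals.

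For Plat the median distance was 1.69, and the closest gene was Net1, a guanine nucleotide exchange factor, at 0.28. Net1 read 109 and 269 in wild-type spleen, 407 and 357 in knockout spleen, 2251 and 4113 in wild-type lymph node and 1282 and 3591 in knockout lymph node, so that its tissues did not overlap. The next were Tceal1 (0.56), Calm4 (0.65), Slfn5 (0.69), Il12b (0.69), the p40 subunit of interleukins 12 and 23, and Mettl27 (0.71). Plaur varied by 1.56 on the log2 scale, under the range of 2 set for this search. The distances share the same 8 arrays and carry no test.

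**Figure D4:**
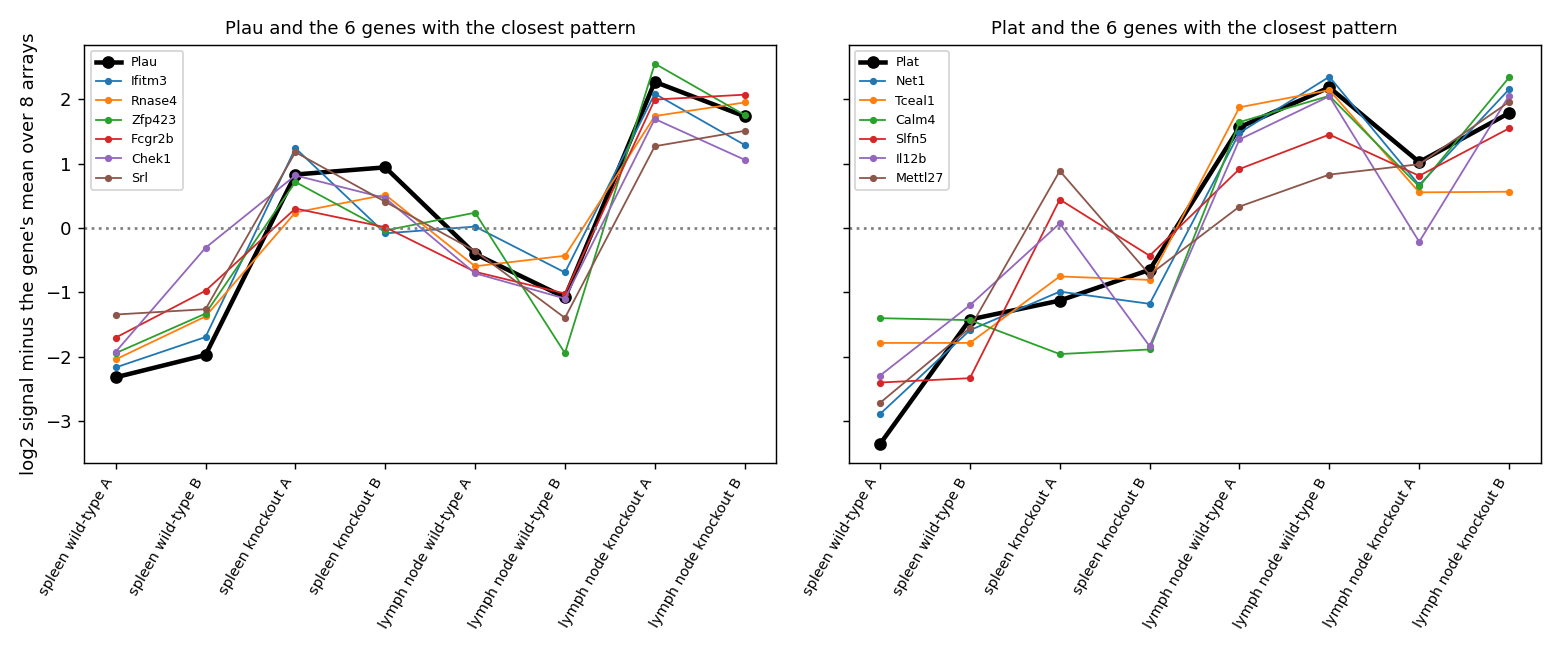
Log2 signal minus each gene's own mean, on the 8 arrays, for Plau (left, black) and Plat (right, black) with the 6 genes closest to each in colour. The Plau group is lowest in wild-type spleen and highest in knockout lymph node, and the Plat group is mostly higher in lymph node than in spleen, with Net1 the closest at 0.28.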

How the data were processed

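The deposited intensity values, linear and 1 per probe set, come from MAS5 per the submitters' processing notes. The sources used here give neither its version nor its target value, and detection calls were not used. The 2% trimmed mean was alike on every array (about 250.0), so arrays had been scaled before deposition. After 64 control probe sets were left out, each array was shifted to a common median, floored at 9.58 and log2 transformed. The brightest probe set stood for a gene (34945 probe sets carried 1 symbol, 932 several and 9160 none), and the 11557 genes above the median signal on at least 2 arrays were tested. Limma 3.58.1 in R 4.3.3 fitted 4 group means to all 8 arrays, with Benjamini-Hochberg adjustment over all tested genes and a threshold of 0.05; the residual degrees of freedom were 4, plus 2.96 from the prior. The procedure was run on simulated data with independent noise for spleen minus lymph node only. That simulation did not cover the knockout effect or the choice of members. The number of arrays limits the precision.

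The members, lists and tests were chosen with earlier results of these data known. The text names all members, Plg, Serpinf2, the pathway genes with the smallest p for the averaged knockout effect (up to 6), the 6 genes closest to each member that varied by over 2 on the log2 scale, Aire, and the sex-linked transcripts. No set test was run. Alternatives covered scaling, floor, filter, gene summary, variance prior, each array left out, a replicate block and Eif2s3y as a covariate.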

Additional observations from a re-analysis of the deposited data

How the results depend on the processing

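Over 20 alternatives the averaged Plau knockout difference stayed above 0, from 2.58 (mean of its probe sets) to 3.06, with 2.72 to 3.06 when 1 array at a time was left out. Plau was chosen on this difference in the same arrays, so the range describes the estimate and is no test of it. Spleen minus lymph node stayed below 0 for Plau, Plaur and Plat in all 20. The number of members passing for it rose from 0 to 1, Plat, with the floor at the 40th percentile and with the trended and robust prior; with that prior the pathway count also rose from 0 to 1 (F13a1). All genes called for it rose from 0 to 48 with that prior. The difference between tissues in the knockout effect changed sign without wild-type lymph node array A for Plau (-0.048) and Plaur (-0.26), and without wild-type spleen array B for Plaur (-0.29). With 1 array left out at a time it ranged from -0.048 to 0.63 for Plau and from -0.29 to 0.79 for Plaur, and none passed. Leaving out both knockout A arrays was chosen after seeing the data. With the replicate block (the letter within genotype for comparisons of tissues, within tissue for the knockout effect) the Plau difference stayed at 2.89, the Plat tissue adjusted p was 0.226, and no call changed. The labels do not say that letters pair samples, and A minus B correlated by 0.06 to 0.31 between groups, with 3 of 6 pairs under 0.1. Within a genotype the sex-linked signals of a letter were alike in both tissues, a hint from the data, not the design, that letters may match across tissues; the correlation between tissues was 0.31 in knockout and 0.065 in wild-type. Limits: each group has 2 arrays, Plat and Serpinb2 have arrays below the floor, and depth is not defined for array signals.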
